A study of Mus musculus with 12 samples.

Results

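Hepatocytes make bile acids from cholesterol, couple them to taurine or glycine, and move them from blood to bile. A set of 10 genes that carry out these steps was followed in single hepatocyte nuclei of the mouse, from the liver through cell isolation to culture. Of these, 4 encode synthesis enzymes (Cyp7a1, Cyp8b1, Cyp27a1, Cyp7b1), 2 encode conjugation enzymes (Baat, Slc27a5), 1 encodes the sodium-dependent uptake carrier of the sinusoidal membrane (Slc10a1) and 3 encode pumps of the canalicular membrane (Abcb11, Abcc2, Abcb4). They were chosen by name for these roles, with earlier results of these data known, so counts of them describe a chosen set. They are 10 of the 32285 genes in the matrices, and all 10 passed the minimum of 10 counts.

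The mice were 8 wild-type males fed chow, 10 to 12 weeks old, and each gave 3 samples. The deposited labels give the strain as C57BL6J, whereas the study's methods name C57BL/6NTac. Liver (L) was a frozen piece of the organ, Cell Suspension (CS) was hepatocytes freshly released by collagenase and enriched by slow spins, and Primary Hepatocytes (PH) were the same kind of cells after 24 hours on collagen in medium with 1 µM dexamethasone and 1 nM insulin. The L piece was cut after the liver had been perfused with a warm EGTA buffer until it was clear of blood. PH cells were first plated in medium with serum, and were detached with trypsin before freezing. Apart from these steps no group was given a treatment, and L is the reference for both other types. Nuclei were marked with hashtag antibodies and mixed in 6 pools of 4 samples. A mouse number names the liver that its 3 samples were taken from.

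The table of nuclei holds 53467 nuclei, of which 44788 were hepatocyte nuclei (15166 in L, 13339 in CS and 16283 in PH). Depth per sample over hepatocyte nuclei ranged from 6872031 to 29023569 unique molecular identifiers (UMIs) in L, from 2104087 to 17452582 in CS and from 9852007 to 21226254 in PH. The 8 hepatocyte markers (Alb, Apob, Ttr, Trf, Fgb, Hnf4a, Serpina3k, Apoh) summed to 6765 to 9596 CPM (UMI counts scaled to a common library total) in hepatocyte nuclei of L, 9864 to 11190 in CS and 2454 to 5030 in PH. In endothelial nuclei the same markers summed to 1490 to 3415 CPM in L, 1492 to 5466 in CS and 1249 to 3818 in PH, so the ranges of hepatocyte and endothelial nuclei overlapped in PH. The 8 endothelial markers summed to 30.5 to 49.2 CPM in the same nuclei of L, 35 to 72.9 in CS and 113 to 169 in PH. The 7 stellate markers likewise summed to 17.4 to 44.1 CPM in hepatocyte nuclei of L, 14.7 to 47.5 in CS and 48.7 to 619 in PH, and the 6 leukocyte markers to 13.1 to 31.5, 10.4 to 31.4 and 64.1 to 86.5. The ranges of the Kupffer and biliary markers overlapped between the 3 sample types. The part of these markers in the results below was not tested. The 337 barcodes seen in more than 1 pool were treated as different nuclei.

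In the classic pathway, Cyp7a1 starts bile acid synthesis and sets its rate, and Cyp8b1 decides how much cholic acid is formed. The alternative pathway runs through Cyp27a1, which oxidizes the sterol side chain, and Cyp7b1, which hydroxylates the resulting oxysterols. Slc27a5 activates bile acids with coenzyme A and Baat joins them to taurine or glycine. Bile acids return from the gut by way of Slc10a1 and leave through Abcb11, while Abcc2 exports conjugated organic anions such as bilirubin glucuronides and Abcb4 moves phosphatidylcholine into bile.

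In GRCm38 the synthesis genes lie at chr4:6265612-6275633 (Cyp7a1), chr9:121914356-121916305 (Cyp8b1), chr1:74713574-74737892 (Cyp27a1) and chr3:18071950-18243338 (Cyp7b1). The conjugation genes lie at chr4:49489422-49506557 (Baat) and chr7:12988346-12998192 (Slc27a5). The transporters lie at chr12:80953183-80968705 (Slc10a1), chr2:69238282-69342616 (Abcb11), chr19:43782192-43840740 (Abcc2) and chr5:8893717-8959231 (Abcb4). Cyp8b1 has 1 exon and the others have introns, so for 9 of the 10 genes a nucleus can hold spliced and unspliced RNA. Values below add spliced, unspliced and ambiguous UMIs unless stated.

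After 24 hours of culture, all 10 genes were lower in hepatocyte nuclei than in L. All 10 passed the test (edgeR's quasi-likelihood test, adjusted p of at most 2.58e-06), where 26.3% of the 26778 genes tested were lower and 27.4% were higher. The median log2 fold change of the 10 genes was -3.45, beside 0.0993 over all genes. The samples of L and PH did not overlap for any of the 10, where PH lay below L without overlap for 16.2% of all genes, and each of the 10 was lower in 8 of 8 mice. Against CS the picture was alike, with 10 of 10 lower and a median of -3.42, where 23.5% of all genes were lower. PH was from 5.84-fold (Abcc2) to 72.9-fold (Cyp7a1) below CS, with adjusted p of at most 2.72e-06. Both comparisons share the PH samples.

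**Figure D1:**
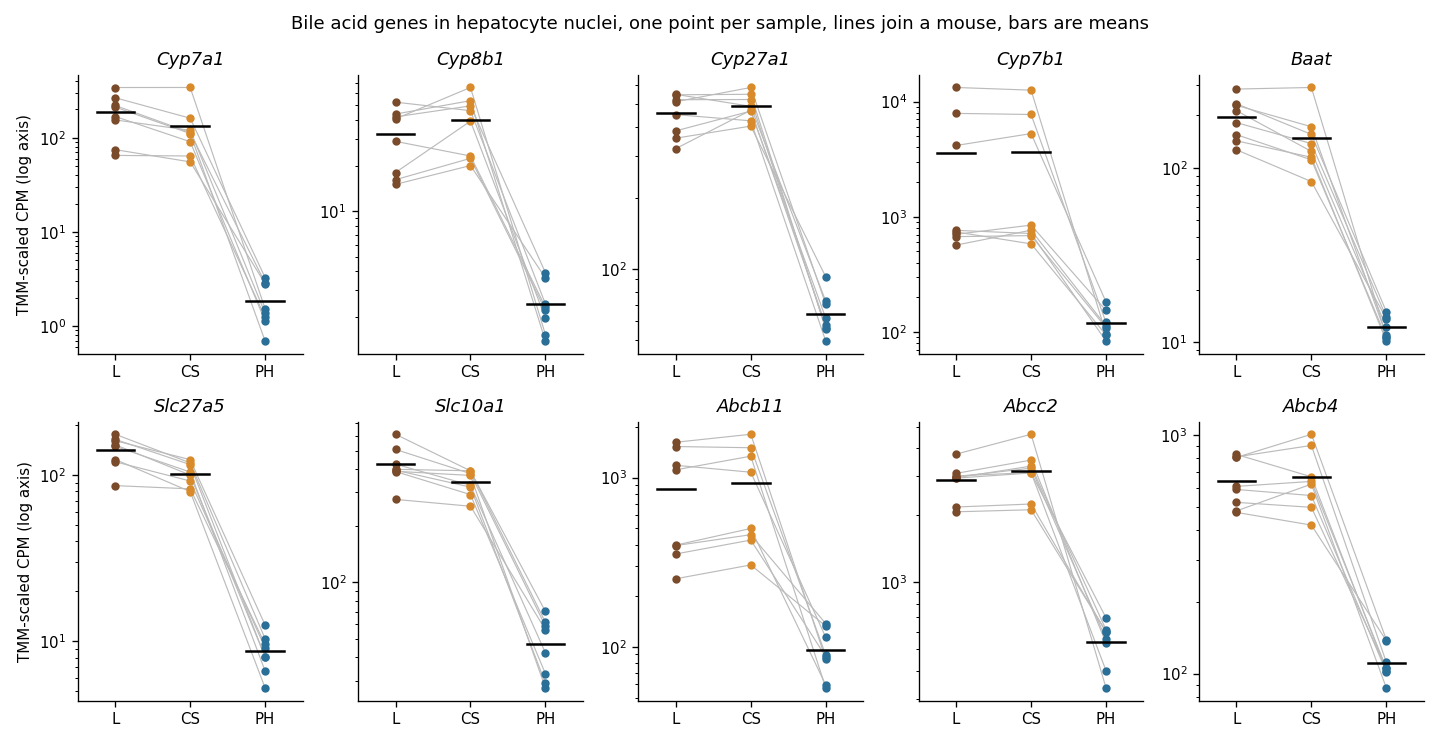
TMM-scaled CPM (log axis) of the 10 bile acid genes in hepatocyte nuclei of Liver, Cell Suspension and Primary Hepatocytes samples, with 1 point per sample, lines that join samples of the same mouse, and bars at the mean. The 8 Primary Hepatocytes samples lie below all Liver and Cell Suspension samples in each panel, and Cyp7b1 and Abcb11 fall into separate bands of mice in Liver and Cell Suspension.

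Cyp7a1 fell most. Its level on the scale of TMM-scaled CPM, used for all levels below unless stated, was 65.0 to 342 in L (median 190), 55.5 to 343 in CS (median 112) and 0.692 to 3.27 in PH (median 1.45). The lowest L sample thus stood well above the highest PH sample. The log2 fold change of PH against L was -6.69 (SE 0.437), or 103-fold lower. With the pool as a covariate it was -5.96, and within the only pools that held both types, L was 52.4-fold and 50.9-fold above PH.

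Cyp8b1, the other enzyme particular to the classic pathway, was 15.0 to 52.5 in L (median 34.8), 20.01 to 65.6 in CS (median 42.7) and 1.38 to 3.92 in PH (median 2.27). It was 13.3-fold lower in PH than in L (log2 fold change -3.74, SE 0.305). Cyp27a1 was steadier within each type. It was 323 to 548 in L (median 480), 402 to 586 in CS (median 478) and 49.3 to 92.4 in PH (median 59.7), which made it 7.05-fold lower in PH than in L (-2.82, SE 0.145).

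Cyp7b1 was 83.3 to 182 in PH (median 111) and 568 to 13269 in L (median 750). Its log2 fold change was -4.92 with a wide error (SE 0.779), and the mice fell into separate bands described further on. It was -3.51 with the mouse as a block, -3.53 from spliced UMIs alone and -4.18 without mouse 5, and it remained called in these fits.

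The conjugation enzymes fell by similar amounts. Baat was 127 to 283 in L (median 197), 83.4 to 289 in CS (median 131) and 10.2 to 15.0 in PH (median 11.6), and was 16.0-fold lower in PH than in L (-4.00, SE 0.213). Slc27a5 was 86.4 to 176 in L (median 151), 79.6 to 124 in CS (median 102) and 5.26 to 12.5 in PH (median 8.60), or 16.2-fold lower (-4.02, SE 0.169). From unspliced UMIs alone the log2 fold change of Slc27a5 was -5.12.

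Slc10a1, the uptake carrier, was 276 to 610 in L (median 396), 253 to 391 in CS (median 348) and 27.6 to 70.2 in PH (median 49.2). It was 8.94-fold lower in PH than in L (-3.16, SE 0.192).

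Among the canalicular pumps, Abcc2 and Abcb4 had the smallest falls of the 10 genes in the fit over all samples. Within pool 2, L and PH both came from mouse 4 alone. There Abcc2 was not among the smallest, being 11.2-fold lower in PH than in L, beside 5.6-fold for Cyp27a1. Within pool 5 (L of mouse 5, PH of mice 3 and 8), Abcc2 was 3.55-fold and Abcb4 4.9-fold lower. Abcc2 was 2070 to 3758 in L (median 2959), 2114 to 4615 in CS (median 3179) and 335 to 692 in PH (median 576), and was 5.30-fold lower in PH than in L (-2.41, SE 0.176). Abcb4 was 474 to 830 in L (median 601), 419 to 1008 in CS (median 631) and 87.2 to 139 in PH (median 105), or 5.76-fold lower (-2.53, SE 0.175). Abcb11, the bile salt export pump, was 57.1 to 137 in PH and 9.0-fold lower than in L (-3.17, SE 0.405).

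Between CS and L, edgeR called 0 of 10 genes higher and 1 lower, where 8.16% of all genes were higher and 14.2% lower. These counts are near the shares of all genes. At an unadjusted p under 0.05 it was 0 higher and 2 lower, and DESeq2 also called 0 higher and 1 lower. The gene called lower was Slc27a5, with a log2 fold change of -0.47 (SE 0.149, adjusted p = 0.0214). That call was lost with another normalization (RLE size factors, adjusted p = 0.0582) and without mouse 2 or mouse 4. Baat had a log2 fold change of -0.40 (SE 0.188, adjusted p = 0.138), which passed the test with the mouse as a block (adjusted p = 0.0296). Cyp7a1 had a log2 fold change of -0.50 (SE 0.332, adjusted p = 0.315) and was lower in 7 of 8 mice. Slc10a1 had a log2 fold change of -0.31 (SE 0.177, adjusted p = 0.225) and was lower in 8 of 8 mice, and with the mouse as a block neither was called. From unspliced UMIs alone Cyp7a1 was called lower in CS than in L (log2 fold change -1.26, adjusted p = 0.00446). The other 6 genes had changes between 0.02 and 0.30 on the log2 scale, with adjusted p of 0.487 or more. Of these, Abcc2 was higher in CS in 8 of 8 mice after TMM but in 3 of 8 on library totals, and the block gave it 0.133 (adjusted p = 0.63).

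RefSeq start-site windows (GRCm38.p6, 250 bases before to 50 after the start) were matched by symbol for 6 of the 10 genes. The windows of 3, 1 synthesis enzyme and 2 canalicular pumps, are printed as examples. Capitals mark matches to short motifs. In Cyp8b1 these are CAAAGTCCA, a site of Hnf4a, and a TATA box (TATAAA). In Abcb11 it is the core bound by nuclear receptors (AGGTCA), read on the opposite strand. In Abcc2 it is the same receptor core, read on the printed strand.
Cyp8b1 (chr9:121916256-121916555, minus strand): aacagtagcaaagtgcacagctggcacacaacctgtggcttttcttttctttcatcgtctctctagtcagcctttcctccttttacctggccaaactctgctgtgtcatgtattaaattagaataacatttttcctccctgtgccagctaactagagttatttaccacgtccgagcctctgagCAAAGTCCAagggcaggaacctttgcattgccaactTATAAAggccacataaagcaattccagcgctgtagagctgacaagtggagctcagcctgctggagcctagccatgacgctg
Abcb11 (chr2:69342567-69342866, minus strand): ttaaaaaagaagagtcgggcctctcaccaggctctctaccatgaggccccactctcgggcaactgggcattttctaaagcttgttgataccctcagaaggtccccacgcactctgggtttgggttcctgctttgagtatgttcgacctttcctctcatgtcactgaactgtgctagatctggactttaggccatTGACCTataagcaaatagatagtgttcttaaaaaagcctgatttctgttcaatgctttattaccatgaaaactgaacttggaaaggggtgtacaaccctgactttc
Abcc2 (chr19:43782058-43782357, plus strand): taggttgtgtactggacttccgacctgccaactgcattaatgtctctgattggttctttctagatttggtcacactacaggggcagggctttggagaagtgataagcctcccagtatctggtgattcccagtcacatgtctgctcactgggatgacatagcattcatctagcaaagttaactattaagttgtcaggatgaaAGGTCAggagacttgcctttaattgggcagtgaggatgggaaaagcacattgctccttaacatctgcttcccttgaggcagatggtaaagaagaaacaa
Counted from the start site, the matches begin at -67 and -31 in Cyp8b1, at -56 in Abcb11 and at -49 in Abcc2. Of 32851 windows in the table, searched on both strands, 0.475% hold the Hnf4a site, 13.6% the TATA box and 16.3% the receptor core. The site CAAGGTCA of Nr5a2, which contains the receptor core and is in 1.56% of windows, was also searched and had no match in these windows. The matches describe the letters only. Slc10a1 has 2 windows that are not printed, 1 with the receptor core at -87 and 1 with a TATA box on the opposite strand at -128. The windows of Cyp27a1 and Abcb4 are not printed either, and Cyp7a1, Cyp7b1, Baat and Slc27a5 were not matched.

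In 2 of the genes the mice fell into separate bands, meaning that the largest step between neighbouring mice was at least 1 on the log2 scale in both L and CS and put the same mice, more than 1 on each side, above it. By this rule 65 of 17193 genes with UMIs in all L and CS samples (0.378%) had bands. Cyp7b1 was 763, 672, 4161, 568, 13269, 7904, 738 and 704 in L of mice 1 to 8. In CS of the same mice it was 715, 686, 5277, 765, 12577, 7731, 582 and 846. Mice 3, 5 and 6 thus formed a high band in both sample types, 5.46-fold above the next mouse in L and 6.23-fold in CS. In PH, Cyp7b1 spanned only 83.3 to 182 and its largest step between neighbouring mice was 1.27-fold.

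The high band of mice 3, 5 and 6 was not a matter of Cyp7b1 alone, since 18 of the 65 genes with bands had it. Some other bile acid genes, named after their values were seen, also had these mice highest. Cyp2c70, a bile acid hydroxylase, was 433, 2545 and 1482 in L of mice 3, 5 and 6 and 66.3 to 190 in the others. Scp2, a sterol carrier that also acts in peroxisomal side-chain cleavage, was 988, 3580 and 2274 in L of these mice and 424 to 563 in the others. In CS, Cyp2c70 was 316, 1891 and 1093 in these mice and at most 142 in the others, and Scp2 was 950, 2717 and 1739 and at most 551.

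Abcb11 divided the mice in another way. It was 1112, 353, 1618, 399, 1527, 396, 1182 and 252 in L of mice 1 to 8, and 1339, 427, 1804, 500, 1501, 459, 1076 and 304 in CS. Mice 1, 3, 5 and 7 were high and mice 2, 4, 6 and 8 low in both sample types, with a step of 2.79-fold in L and 2.15-fold in CS. In PH the largest step was 1.42-fold. Of the 65 genes, 4 had these mice above and 3 had the other 4 mice above. Cyp7a1 also had steps above 2-fold (2.07-fold in L and 2.12-fold in CS), but they put 6 mice above in L and mouse 6 alone in CS, so it was not counted as banded.

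**Figure D2:**
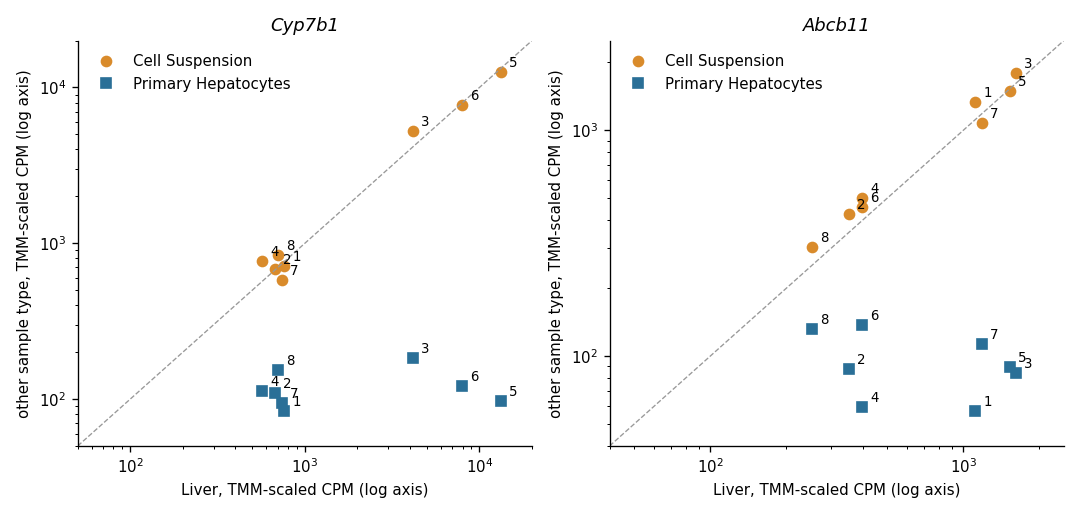
TMM-scaled CPM (log axis) of Cyp7b1 and Abcb11 in hepatocyte nuclei of each of the 8 mice, for Liver, Cell Suspension and Primary Hepatocytes. Mice 3, 5 and 6 stand at 4161 or more for Cyp7b1, mice 1, 3, 5 and 7 at 1076 or more for Abcb11, each in both Liver and Cell Suspension, and neither band is seen in Primary Hepatocytes.

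Several pools held mice of both bands. The L samples of mice 3, 5 and 6 were in pools 1, 5 and 6, and their CS samples in pools 4, 2 and 6. Pool 1 also held L of mice 7 and 8, with Cyp7b1 at 738 and 704, and pool 6 also held L of mice 1 and 2, at 763 and 672. For Abcb11, pool 6 held L of mouse 1 at 1112 beside L of mouse 2 at 353 and L of mouse 6 at 396, and pool 5 held L of mouse 5 at 1527 beside CS of mouse 4 at 500. Because the bands were read from these same values, no test was made of them.

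The bands were mostly a matter of unspliced RNA. Of the 784132 Cyp7b1 UMIs in hepatocyte nuclei, 98.3% were unspliced. On library totals, without TMM, unspliced Cyp7b1 in L was 3442, 10520 and 7122 CPM in mice 3, 5 and 6 and 509 to 695 CPM in the others. Spliced Cyp7b1 was 48.4, 109 and 84.2 CPM in mice 3, 5 and 6 and 16.1 to 30.8 CPM in the others, so the high mice were also highest in spliced RNA but by less. For Abcb11 in L, mice 1, 3, 5 and 7 had 904, 1260, 1111 and 928 unspliced CPM, and mice 2, 4, 6 and 8 had 267, 302, 283 and 176. Spliced Abcb11 was 139, 89.1, 101 and 120 CPM in mice 1, 3, 5 and 7 and 78.6, 65.0, 70.5 and 46.6 in the others, a difference of a smaller size. Cyp7b1 and Abcb11 span 171.4 and 104.3 kb of the genome and are the longest of the 10 genes.

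In endothelial nuclei of L, on library totals as for all levels in this cell type, the same mice overlapped. Their Cyp7b1 was 351, 796 and 608 CPM in mice 3, 5 and 6 and 189 to 490 CPM in the others. Their Abcb11 was 96.4, 115, 100.0 and 168 CPM in mice 1, 3, 5 and 7 and 53.8 to 109 CPM in the others. In endothelial nuclei of CS, however, Cyp7b1 was 937, 1712 and 1443 CPM in mice 3, 5 and 6. It was 59.0 to 572 CPM in the others. The highest of these were mice 8 and 4 (572 and 563 CPM), whose pools also held CS and L of mouse 5 in turn. Mice 7 and 2 (146 and 107 CPM) shared a pool with L and CS of mouse 3 in turn. In L, mice 1 and 2 (490 and 432.5 CPM) shared a pool with mouse 6. Mice 7 and 8 (189 and 232.5 CPM) shared one with mouse 3. The parts of mouse and pool in these values were not tested. Abcb11 in endothelial nuclei of CS was 70.8, 182, 167 and 90.4 CPM in mice 1, 3, 5 and 7 and 37.4 to 152 CPM in the others, which overlapped.

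Mouse differences in L were also set against those in CS for the other genes. The correlation of L with CS over the 8 mice was computed for the 8 genes without bands, and that of L with PH likewise, 16 relations in all, each with a two-sided exact permutation test and Benjamini-Hochberg adjustment over all genes with UMIs in these samples. Of L with CS 3 relations passed, where 5.6% of 17193 genes had a positive r that passed, and by rank 0 did. Abcc2 had r = 0.988 (exact permutation p = 3.97e-04, adjusted 0.0251) and rho = 0.905 (exact p = 0.00456, adjusted 0.0869), with r = 0.971 after the 2 mice farthest from the median were left out. Its lowest mice were 5 and 6, at 2070 and 2175 in L and 2114 and 2244 in CS.

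Baat (r = 0.907, exact permutation p = 9.92e-04, adjusted 0.0319) and Cyp7a1 (r = 0.888, exact p = 0.00206, adjusted 0.0446) also passed. Their rho was 0.929 and 0.833 (adjusted exact permutation p = 0.0698 and 0.156), and r without the 2 farthest mice was 0.832 and 0.864. Slc27a5 (r = 0.844, exact p = 0.00441, adjusted 0.0628) and Abcb4 (r = 0.819, exact p = 0.0126, adjusted 0.106) did not pass. Cyp7a1 was highest in mouse 6 in both types (342 in L and 343 in CS) and lowest in mice 4 and 8. Cyp8b1, Cyp27a1 and Slc10a1 had r of 0.783, 0.65 and 0.781 and did not pass (adjusted exact permutation p = 0.178, 0.306 and 0.141). None of the 8 relations between L and PH passed, and 3 of the 8 had a negative r. Nor did any of the 19730 genes with UMIs in these samples pass by a positive r (0%). An exact p-value over 8 mice has a floor, so a gene passes this adjustment only if several genes come near it. The lack of calls therefore does not show that mouse differences were lost. By rank, Abcc2 had a negative relation before adjustment (rho = -0.786, exact permutation p = 0.0279, adjusted 0.915). The L and CS samples of a mouse shared a pool in mice 6 and 7 only, and the L and PH samples in mouse 4 only.

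Endothelial nuclei, which are not known for bile acid synthesis, served as the background for hepatocyte RNA outside hepatocyte nuclei. In L all 10 genes were higher in hepatocyte than in endothelial nuclei of the same samples, by 2.29 (Cyp8b1) to 3.5 (Abcc2) on the log2 scale, where 26.6% of 27025 genes were higher. From spliced UMIs alone Cyp7b1 was 1.8 and Slc10a1 2.18. In CS all 10 were higher as well, by 2.49 to 3.36, where 20.2% of genes were higher. On library totals these ratios were lower, between 1.86 (Cyp7b1) and 2.75 (Cyp27a1 and Abcb11), and all 10 remained called. Before culture the 10 genes thus stood well above the background.

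In PH only 6 genes were still above endothelial nuclei, where 20.8% of genes were higher. They were Abcc2 (log2 difference 1.89, SE 0.165), Cyp27a1 (1.48, SE 0.207), Abcb4 (1.15, SE 0.165), Baat (1.00, SE 0.297), Abcb11 (0.96, SE 0.198) and Slc10a1 (0.63, SE 0.185), with adjusted p of at most 0.00459. All 3 canalicular pumps were among them. From spliced UMIs alone Slc10a1 (-0.331) and Baat (0.426) were not called, and Baat was not called without mouse 6 (0.732) or Slc10a1 without mouse 7 (0.426) or on library totals (0.454, adjusted p = 0.0742). Cyp7a1 was lower in hepatocyte than in endothelial nuclei of PH (-1.53, SE 0.438, adjusted p = 0.00337), where 11.1% of genes were lower. That call was lost with unspliced UMIs alone (-1.31), and without the nuclei of PH not annotated as cultured the difference was -2.26. It rests on few UMIs, since Cyp7a1 on library totals was 0 CPM in endothelial nuclei of PH in mice 2, 6 and 7. In the other mice it was at most 27.4 CPM, and hepatocyte nuclei were higher in 3 of 8 samples. Cyp8b1 (-0.82, SE 0.388, adjusted p = 0.102), Cyp7b1 (-0.16, SE 0.230, adjusted p = 0.653) and Slc27a5 (-0.07, SE 0.251, adjusted p = 0.85) had no called difference, although without mouse 6 Cyp7b1 was called lower (-0.403, adjusted p = 0.0367). From spliced UMIs alone Slc27a5 was 1.08 above endothelial nuclei (adjusted p = 0.281). The PH levels of these 4 genes were thus not shown to exceed this background. The background itself differed between pools. On library totals, Cyp7b1 in endothelial nuclei of PH was 623, 534 and 344 CPM in mice 3, 8 and 4, whose pools (5 and 2) also held L samples. In the other mice, in pools 3 and 4 without L samples, it was 68.9 to 157 CPM. Whether RNA of other samples in a pool added to this background was not tested.

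**Figure D3:**
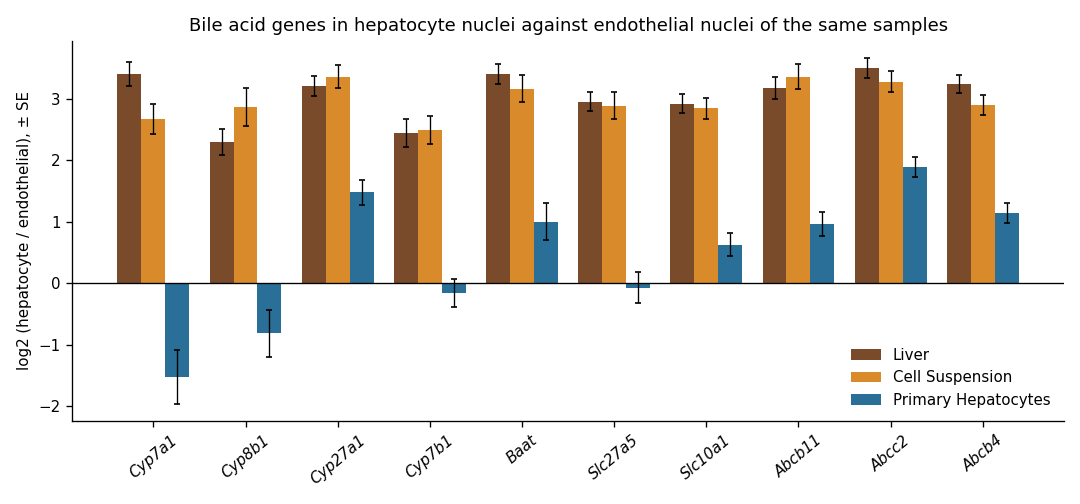
Fitted log2 ratio of hepatocyte to endothelial nuclei of the same samples, with bars of 1 SE, for the 10 genes in Liver, Cell Suspension and Primary Hepatocytes (8 samples each). Bars in Liver and Cell Suspension lie between 2.29 and 3.5, whereas those of Primary Hepatocytes reach at most 1.89 and are below 0 for Cyp7a1, Cyp8b1, Cyp7b1 and Slc27a5.

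The endothelial level was not constant either. On library totals, without TMM, Cyp7a1 was 24.0 ± 15.8 CPM (SD, n = 8) in endothelial nuclei of L, 30.5 ± 25.96 in CS and 7.05 ± 9.63 in PH. The difference between the hepatocyte change and the endothelial change was tested in the same fit. From L to PH all 10 genes fell more in hepatocyte nuclei, with log2 differences from -1.61 (Abcc2) to -4.93 (Cyp7a1), where 11.6% of genes did so. The value of Cyp7a1 was -4.2 without mouse 3 and -5.64 without the nuclei of PH that the authors do not annotate as cultured. From CS to PH all 10 did so too, where 9.89% of genes did. From spliced UMIs alone Slc27a5 was not called in either (-1.78, adjusted p = 0.244 from L to PH, and -1.66, adjusted p = 0.4 from CS to PH). Between CS and L edgeR called 0 of 10 (adjusted p of 0.408 or more), where 1.82% of genes were higher and 0.636% lower, with 1 lower at an unadjusted p under 0.05. The number of endothelial nuclei per sample was 161 to 560 in L, 42 to 254 in CS and 29 to 510 in PH, which limits the precision of this background.

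Shares of nuclei with a UMI were compared at equal depth. Each nucleus was thinned to 1000 UMIs, which kept 96.1%, 93.0% and 98.2% of hepatocyte nuclei in L, CS and PH, and 93.5%, 68.7% and 73.4% of endothelial nuclei. Cyp7a1 was then found in 12.2% ± 5.70 (SD, n = 8) of hepatocyte nuclei of L, 8.92% ± 6.93 of CS and 0.230% ± 0.257 of PH, beside 2.54%, 2.08% and 0.788% of endothelial nuclei. Unthinned, the hepatocyte shares were 35.6%, 20.6% and 1.17%. Abcc2 was found in 85.9% ± 6.23, 86.6% ± 6.33 and 39.6% ± 4.61 of thinned hepatocyte nuclei, beside 18.7%, 25.8% and 17.7% of endothelial nuclei, so it stayed above background in PH. Cyp7b1 in PH was found in 13.9% ± 5.94 of hepatocyte nuclei and 20.5% of endothelial nuclei. Median depth before thinning was 4390.5 to 13996 UMIs per hepatocyte nucleus in L, 1818 to 5774 in CS and 4339 to 8449 in PH, and 916.5 to 4049 per endothelial nucleus over all types.

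Position in the lobule was read from a score of pericentral minus periportal genes that holds none of the 10. Blood flows from portal vein to central vein, and bile acid synthesis is known to lie toward the central vein. On library totals, Cyp7a1 in L was 28.7 ± 21.5 CPM (SD, n = 8) in nuclei at the portal end of the score, 126 ± 80.6 in the middle and 323 ± 149 at the central end, each end and the middle holding 1 of 3 equal parts of a sample's nuclei. The central end was higher in 8 of 8 samples (log2 difference 3.47, SE 0.123). This difference was 2.65 with nuclei thinned to 500 UMIs and 2.66 with a split at the median. Cyp27a1 (1.19, SE 0.0853), Abcc2 (0.73, SE 0.0786), Abcb4 (0.72, SE 0.0814) and Cyp7b1 (0.28, SE 0.0824) were also higher centrally, which makes 5 of 10 genes where 4.31% of 17828 genes were. Slc27a5 (-0.42, SE 0.104, adjusted p = 8.33e-04) and Abcb11 (-0.24, SE 0.0821, adjusted p = 0.0454) were lower centrally, 2 of 10 where 4.52% of genes were. The Abcb11 call was lost with a split at the median in place of 3 parts, with nuclei thinned to 500 UMIs, and without any 1 of mice 2, 5, 6, 7 and 8. At 500 UMIs Cyp7b1 (0.249, adjusted p = 0.11) and Slc27a5 (-0.203, adjusted p = 0.58) also lost their calls.

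In CS the central end was higher for Cyp7a1 (28.4 ± 47.9 CPM at the portal and 226 ± 161 at the central end, log2 difference 2.99, SE 0.138), Cyp27a1 (1.17, SE 0.0881), Abcc2 (0.78, SE 0.0791), Cyp8b1 (0.76, SE 0.195) and Abcb4 (0.61, SE 0.0838), where 5.05% of genes were higher. For Cyp7a1 it was 2.27 at 500 UMIs, 2.28 with a split at the median and 2.31 with a score without Cyp2e1 and Cyp2f2. The Cyp8b1 call was lost at 500 UMIs and with the same reduced score. The count called lower by edgeR was 0 of 10, where 4.78% of genes were, and 1 gene (Abcb11) was lower at an unadjusted p under 0.05. The central to portal ratio differed between CS and L for 0 of the 10 genes in edgeR's test of the difference, where 0.404% of genes were higher and 0.0841% lower. The nearest were Baat (0.42, SE 0.154, adjusted p = 0.329) and Cyp7a1 (-0.48, SE 0.213, adjusted p = 0.522), the only 2 of the 10 with an unadjusted p under 0.05. Mouse 6, whose portal end held 147 CPM of Cyp7a1, weighed on this, and without it the Cyp7a1 difference was 0.126 and its CS ratio 3.81. With the score without Cyp2e1 and Cyp2f2 Cyp7a1 was called for the difference (-0.841, adjusted p = 0.00603). The score was not applied in PH.

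**Figure D4:**
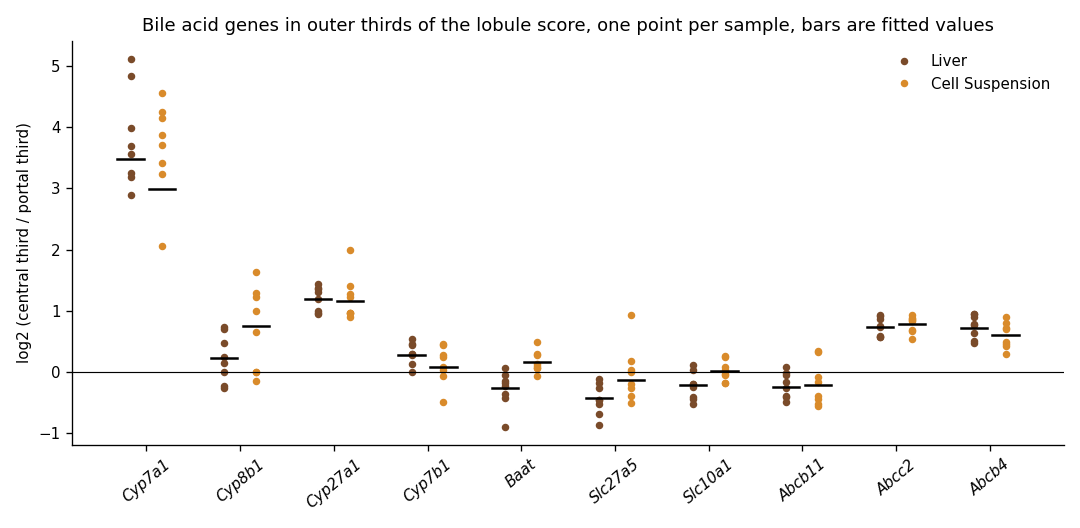
Log2 ratio of the central to the portal end of the lobule score in hepatocyte nuclei, with 1 point per Liver or Cell Suspension sample and bars at the fitted value, for the 10 genes. Cyp7a1 lies at 2.06 or more in all 16 samples and Cyp27a1 above 0 in all 16, whereas Slc27a5 in Liver lies below 0 in 8 of 8.

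Nuclear RNA was read as spliced or unspliced. Over all genes the spliced share of hepatocyte UMIs was 14.9% to 19.8% in L, 20.8% to 28.9% in CS and 24.6% to 28.1% in PH, with ambiguous UMIs counted in the total. The shares of single genes below leave ambiguous UMIs out. Cyp7a1 stood apart with 66.4% of its spliced and unspliced UMIs spliced in L, 79.0% in CS and 72.4% in PH. Cyp7b1 was at the other end, with 2.78%, 3.23% and 4.66%. The single-exon gene Cyp8b1 had 6356 UMIs, all spliced, and could not be tested.

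Of the 9 genes with both states, 8 had a higher spliced share in CS than in L, where 42.5% of 16996 genes did and the median of all genes was 0.59 on the log2 scale. Slc27a5 changed most (13.9% to 28.8%, log2 change of the spliced to unspliced ratio 1.32, SE 0.168), and Cyp7b1 was not called. Leaving out 1 mouse took the count to between 6 and 8. The call of Abcc2 was lost without any 1 of mice 2, 4, 6 and 7, and that of Abcb11 without mouse 4 or 7. With library sizes taken separately for each state, a choice made after the data were seen, 2 of the 9 remained called in this comparison. They were Slc27a5 (0.684) and Slc10a1 (0.492). In PH against L 5 genes were called higher, where 43.6% of genes were, again led by Slc27a5 (36.2% in PH, 1.87, SE 0.203). The call of Abcb4 was lost with ambiguous UMIs counted as spliced (0.219, adjusted p = 0.108) and that of Abcc2 without mouse 3, and leaving out 1 mouse gave 4 to 6 genes. With separate library sizes only Slc27a5 stayed higher, and Slc10a1 (-0.52, adjusted p = 0.00998) and Abcb11 (-0.67, adjusted p = 0.0212) were lower.

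Between PH and CS the median of all genes was -0.0865, and 2 of the 9 genes were called lower. Slc10a1 lost spliced share (24.7% in CS and 13.1% in PH, -1.18, SE 0.178, adjusted p = 3.06e-07), and so did Abcb11 (22.4% and 12.4%, -0.91, SE 0.252, adjusted p = 0.00512), where 13% of genes did. The share for Abcb11 went from 28.0%, 30.8%, 29.4% and 35.3% in CS to 11.5%, 14.3%, 14.01% and 10.3% in PH of mice 2, 4, 6 and 8, the low band. In mice 1, 3, 5 and 7 it was 14.5%, 8.98%, 12.6% and 19.8% in CS and 13.2%, 13.8%, 11.9% and 10.3% in PH, so the fall was mostly that of the low band. The bands were read from these same L and CS samples, in UMIs that were mostly unspliced (86.1% of Abcb11 UMIs). A higher spliced share of the low band in CS thus follows in part from how the bands were read. This split is a description only. Slc27a5 gained (0.56, SE 0.207, adjusted p = 0.0426), where 8.72% of genes did, but that call was lost without any 1 of mice 1, 2, 4 and 5 (0.329 without mouse 5). The PH level of Slc27a5 was not distinguished from that of endothelial nuclei, and the part of background in the shares was not tested.

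**Figure D5:**
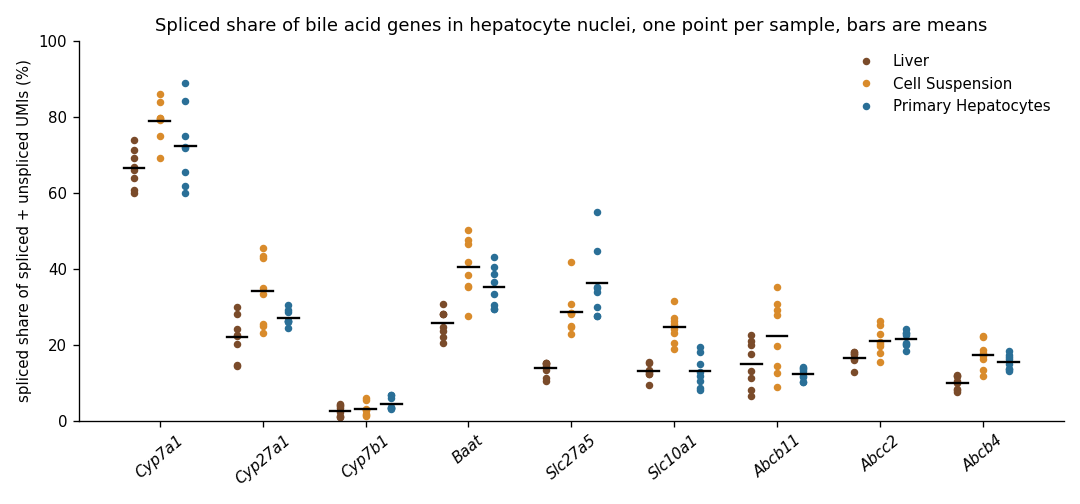
Spliced share (percent of spliced and unspliced UMIs) of 9 bile acid genes in hepatocyte nuclei, with 1 point per sample and bars at the mean of the 8 samples, for Liver, Cell Suspension and Primary Hepatocytes. Cyp7a1 lies highest at means of 66.4% to 79.0%, Cyp7b1 lowest at 2.78% to 4.66%, and Slc10a1 returns from 24.7% in Cell Suspension to 13.1% in Primary Hepatocytes.

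The rest of the pathway was read from 4 lists of 40 genes by role, also chosen with earlier results of these data known. Of 13 other synthesis enzymes, 0 were higher and 12 lower in PH than in L (median log2 fold change -2.15), where 27.4% of all genes were higher and 26.3% lower, as for the 3 lists below. Akr1c6, a ketosteroid reductase, fell most, from 858 ± 306 (SD, n = 8) in L to 15.4 ± 5.89 in PH (-5.80, SE 0.319). In CS against L 1 was higher and 2 were lower, near the 8.16% and 14.2% of all genes.

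Of 8 basolateral genes, 1 was higher and 3 were lower in PH than in L. Slco1b2, an organic anion uptake carrier, fell from 2764 ± 355 to 40.5 ± 12.6 (-6.09, SE 0.213), more than Slc10a1. The efflux pumps of this membrane went otherwise. Abcc4 rose from 6.62 ± 3.12 to 23.7 ± 11.8 (1.84, SE 0.261, adjusted p = 4.05e-07), while Abcc3 was 190 ± 75.7 in L and 209 ± 28.9 in PH (0.13, SE 0.253, adjusted p = 0.696). Abcc4 was 33.0-fold higher in endothelial than in hepatocyte nuclei of L and 4.06-fold higher in PH, and the endothelial markers in hepatocyte nuclei rose with it, as given above. From L to PH, the change of 2 of the 8 basolateral genes was higher in hepatocyte than in endothelial nuclei, at an unadjusted p under 0.05 in edgeR's test. That of 4 was lower. Of 27025 genes, 6784 were called in this test at an adjusted p under 0.05, and 3131 of these were lower. The part of endothelial RNA in the rise of Abcc4 was not tested.

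Of 5 canalicular partners, 4 were lower in PH than in L, with Abcg5, a subunit of the cholesterol exporter, falling most (86.8 ± 30.4 to 4.2 ± 0.803, -4.37, SE 0.287). Abcb1a, a drug efflux pump, was the 1 that rose (5.19 ± 2.65 to 8.70 ± 2.58, 0.77, SE 0.244, adjusted p = 0.00807). From L to PH, 0 of the 5 partners rose more in hepatocyte than in endothelial nuclei, even at an unadjusted p under 0.05 in edgeR's test. The endothelial markers in hepatocyte nuclei rose too, as given above, and the part of endothelial RNA in this rise was not tested. In CS against L edgeR called 0 basolateral genes and 0 canalicular partners, with 1 basolateral gene lower, 2 partners higher and 1 partner lower at an unadjusted p under 0.05.

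Of 14 regulators, 13 were lower in PH than in L, and only Mafg was not called. Nr1h4, the bile acid receptor FXR, fell from 1084 ± 203 to 97.3 ± 17.4 (-3.48, SE 0.152). Nr0b2, the repressor SHP that FXR induces and that holds Cyp7a1 down, fell from 56.8 ± 25.3 to 1.73 ± 0.519 (-5.05, SE 0.301). Nr5a2, an activator of Cyp7a1 and Cyp8b1, fell from 539 ± 118 to 80.3 ± 30.2 (-2.75, SE 0.206), and Nr1i3 (CAR) fell most (-6.11, SE 0.299). The repressor Nr0b2 and the activator Nr5a2 were thus both lower in the samples in which Cyp7a1 was lower. Against endothelial nuclei of PH, 10 of 14 regulators were higher at an unadjusted p under 0.05 in edgeR's test. So were 6 of 13 other synthesis enzymes, 4 of 8 basolateral genes and 3 of 5 canalicular partners. In the same order, 1, 3, 2 and 1 were lower. Over all genes 20.8% were higher and 11.1% lower at an adjusted p under 0.05. PH levels of the list genes that were not higher were not shown to exceed this background.

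Some of the 14 regulators differed before culture. In CS against L, 3 were higher and 2 lower at an unadjusted p under 0.05 in edgeR's test. Over all genes 8.16% were higher and 14.2% lower, at the stricter adjusted p under 0.05. In CS against L, Nr0b2 rose (115 ± 55.0 in CS, 1.02, SE 0.245, adjusted p = 0.0024) and Nr1h4 fell (736 ± 132 in CS, -0.56, SE 0.138, adjusted p = 0.00312). Klb, the co-receptor of the gut hormone that restrains Cyp7a1, rose by 1.19 (SE 0.259) and Rxra, the partner of FXR, by 0.74 (SE 0.180) on the log2 scale. Nr5a2 had a log2 fold change of -0.08 (SE 0.193, adjusted p = 0.82) in CS against L.

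Among 3837 genes of at least 50 mean CPM, the pattern of Cyp7a1 over the 24 samples was most like that of Ttc39c (Pearson r = 0.9825 on log2 CPM), Acsm1 (0.9822), Dpys (0.9811), Proz (0.9807) and Cmah (0.9783). These r values are a description. The points share the gap between PH and the other sample types, and each of the 5 genes was far lower in PH (Ttc39c 6180 in L and 364 in PH, Acsm1 251 and 5.44, on group means).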

How the data were processed

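Nuclei of 24 samples (8 mice, 3 sample types) were sequenced in 6 pools of hashtagged samples by droplet-based single-nucleus RNA sequencing. Reads were quantified by the authors on GRCm38 (Salmon Alevin, Alevin-fry). The values deposited per barcode and gene are raw UMI counts, 1 each for spliced, unspliced and ambiguous RNA. Their table of nuclei, also deposited, gives sample, cluster, cell type and counts, and it was used with no nucleus added or removed. How the authors handled doublets was taken over with that table. Cultured nuclei, which it names only as cultured, were divided by cluster into hepatocyte, endothelial and stellate nuclei with fixed marker lists (a margin of 2 on the log2 scale, with hepatocyte as default). The hashtag written CD2 was taken for CS of mouse 2, which has no other hashtag. The hashtag libraries were not used beyond the sample names in the table.

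UMIs were summed per sample and cell type. Genes with at least 10 counts entered edgeR 4.0.16 under R 4.3.3 (quasi-likelihood test after TMM, 1 coefficient per sample type) and p-values were adjusted over all genes by Benjamini-Hochberg, with a threshold of 0.05. DESeq2 1.42.0 was an alternative. Fits of hepatocyte against endothelial nuclei, of spliced against unspliced UMIs (TMM factors of the summed library) and of the ends of the lobule score had the sample as a block. The score and the shares used nuclei thinned to 1000 UMIs. The tests were tried on simulated data. Relations over mice used two-sided exact permutation tests (scipy 1.17.1), adjusted over all genes with UMIs in every sample compared. Tables used Python 3.11.15 with pandas 2.3.3 and numpy 2.4.6, and figures matplotlib 3.10.9. Promoter windows came from RefSeq (GRCm38.p6) and gene positions from the GENCODE annotation of GRCm38.

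The 10 genes and all lists were chosen with earlier results of these data known. Other genes named are, of 4 lists by role (40 genes), the called ones with the largest rise and fall in PH against L, Nr1h4, Nr0b2, Nr5a2, Abcc3 and Abcc4, and the 5 genes most like Cyp7a1. Genes of these lists named for CS against L (Klb, Rxra) and Mafg were chosen after their values were seen. Single values of 1 gene of these lists are not reported here. The mouse number pairs samples because they came from the same liver. Deviations from the group mean correlated at 0.377 to 0.876 between CS and L of the same mouse (6477 genes), at -0.0753 to 0.134 between PH and L, and at -0.147 to 0.126 between PH and CS. The fits had no mouse term, as in the study, and the block was an alternative.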

Additional observations from a re-analysis of the deposited data

Results flagged for a closer look

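The fall from L to PH differed between hepatocyte and endothelial nuclei for all 10 genes, by edgeR's test of the difference itself (adjusted p of at most 7.03e-07). From spliced UMIs alone Slc27a5 was not called (-1.78, adjusted p = 0.244). The value of Cyp7a1 was -4.2 without mouse 3 and -5.64 without the nuclei of PH not annotated as cultured. The further fall in hepatocyte nuclei on the log2 scale was -4.927 for Cyp7a1, -3.112 for Cyp8b1, -3.027 for Slc27a5 and -2.595 for Cyp7b1, the 4 genes whose PH level was not called above that of endothelial nuclei. It was -2.402 for Baat, -2.292 for Slc10a1, -2.221 for Abcb11, -2.095 for Abcb4, -1.733 for Cyp27a1 and -1.612 for Abcc2.

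Of 30 groups of 8 samples, 2 held a sample whose gap to the next exceeded Dixon's critical share of the whole range for 8 samples. Cyp7a1 in CS of mouse 6 was 342.7 and its gap took a share of 0.631. Baat in CS of mouse 3 was 288.8, with a share of 0.568. Chance flags about 1 in 20 groups. The L samples of the same mice were also the highest of their group for these genes, at 342 for Cyp7a1 and 283 for Baat.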

How the results depend on the processing

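Counted as pairs of a gene and an alternative, the fall of the 10 genes in PH remained called in 209 of 209 pairs against L and in 209 of 209 against CS, over alternatives that include DESeq2, RLE factors, other filters, spliced or unspliced UMIs only, the pool as a covariate, the mouse block, thinning and leaving out any mouse. The higher level in hepatocyte than in endothelial nuclei remained called in 129 of 129 such pairs each in L and CS. The size of the fall from L to PH depended on the scale. On library totals, mean levels of all 10 genes were lower in L and higher in PH than after TMM, so the falls were smaller. Abcc2 was 2610 CPM in L and 717.7 in PH, beside 2867 and 540.66 after TMM. Abcb4 was 579.7 and 148.3, beside 640.71 and 111.28. Cyp7a1 was 170.3 and 2.497, beside 188.1 and 1.8633. The small differences between CS and L moved with the settings.

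With RLE factors, spliced UMIs only, thinning to the lowest total, or an absolute log2 fold change of at least 1, 0 of the 10 genes were lower in CS than in L, and with unspliced UMIs only, the pool as a covariate or the mouse as a replicate block it was 2. The block made Baat the second call and changed no other call. Spliced UMIs alone made 1 gene (Abcb4) higher and turned Cyp8b1 to -0.0789, Slc27a5 to 0.0315 and Slc10a1 to 0.179, and unspliced UMIs turned Cyp27a1 to -0.0146. The pool covariate turned Cyp7b1 to -0.134, Abcb11 to -0.0427, Abcc2 to -0.0139 and Abcb4 to -0.0497, and in shared pools only Abcb11 was -0.133 and Abcb4 -0.109, the call of Slc27a5 was lost (-0.508, adjusted p = 0.0599) and Baat was called (-0.665, adjusted p = 0.0295). The cause was not tested. Genes called in all numbered 14379 for PH against L (8979 at 1 or more on the log2 scale), 13501 for PH against CS (8364) and 5980 for CS against L (2079, and 3369 after thinning).

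Against endothelial nuclei of PH, spliced UMIs alone called 5577 genes in place of 8632 and turned Slc27a5 to 1.08 and Slc10a1 to -0.331, and unspliced UMIs alone called 0 of the 10 lower in place of 1. For the difference of changes, spliced UMIs called 3754 in place of 6784 genes (PH against L), 2341 in place of 5058 (PH against CS) and 208 in place of 664 (CS against L), and Slc27a5 was no longer called (-1.78 for PH against L, -1.66 for PH against CS).

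With separate library sizes for each splicing state, spliced share was higher in 1 and lower in 2 of the 9 genes in place of 5 and 0 (PH against L, Cyp7a1 -0.177, Cyp27a1 -0.0155), higher in 2 in place of 1 (PH against CS, Abcb4 0.0102), and higher in 2 in place of 8 (CS against L, Cyp7b1 -0.42, Abcc2 -0.229, with 3654 in place of 7651 genes called). The separate sizes remove the shift shared by all genes. Without the 73 hepatocyte nuclei of PH that the authors annotate as not cultured, 2 genes in place of 1 had a higher spliced share in PH than in CS.

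Thinning to 500 UMIs left 1005 of 1575 calls between the ends of the lobule score in L, 1079 of 1754 in CS and 30 of 87 for their difference, and none of the 10 genes (0 in place of 2) lower centrally in L. With a split at the median this was 1. A score without Cyp2e1 and Cyp2f2 called 1 gene (Cyp7a1, -0.841) for the difference.

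Leaving out each mouse in turn gave 0 to 2 genes lower in CS than in L, 6 to 8 higher in spliced share (CS against L), 1 to 2 lower than endothelial nuclei in PH, 0 to 2 higher and 2 to 4 lower in spliced share (PH against CS), 1 to 3 lower centrally in L, 0 to 1 in CS, and 33 to 126 calls for the difference between CS and L. Single values ranged from -0.00207 to 0.115 (Abcb4, CS against L), -0.0415 to 0.099 (Cyp7b1, CS against L), -0.403 to 0.0663 (Cyp7b1) and -0.24 to 0.101 (Slc27a5) against endothelial nuclei of PH, -0.056 to 0.0974 (Abcc2, spliced share of PH against CS), -0.153 to 0.0871 (Slc10a1, spliced share of PH against L), -0.0165 to 0.0544 (Slc10a1, lobule score in CS) and -0.636 to 0.126 (Cyp7a1, difference of the lobule ratio).

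L and PH shared only pools 2 and 5, so they were compared mostly between pools. The p-values refer to 8 mice of 1 cohort, with a spread that edgeR estimates in part over all genes. In the lobule fits they do not measure the spread of a single gene between mice. Cyp7a1 in L, for example, had log2 ratios of 2.89 to 5.11 in single mice beside an SE of 0.123. The fits against endothelial nuclei, and their tests of a difference of changes, have the same limit. On library totals, endothelial Cyp7b1 was 7.49% to 67.4% of the hepatocyte level in single samples of L, beside an SE of 0.226 on the log2 scale. In PH it was 45.3% to 272%, beside an SE of 0.230. Marker scores of clusters were taken relative to the mean of each list over all clusters, so they do not compare levels between lists. On this relative scale the leukocyte score exceeded the hepatocyte score in all 5 cultured clusters counted as hepatocytes (0, 1, 8, 14 and 17) and in cluster 19. In CPM, hepatocyte nuclei of PH held 2454 to 5030 of the hepatocyte markers and 64.1 to 86.5 of the leukocyte markers. Only cluster 8 was left out as an alternative. It held 166 nuclei in L, 705 in CS and 1450 in PH and was kept with hepatocytes. Leaving it out, an alternative chosen after the data were seen, changed no call of the 10 genes between sample types.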

Other observations

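Outside hepatocyte nuclei of L, Cyp7b1 on library totals was 427 ± 202 CPM (SD, n = 8) in endothelial, 688 ± 818 in stellate and 527 ± 419 in Kupffer nuclei, beside 3070 ± 3853 in hepatocyte nuclei. Stellate nuclei of L held up to 2563 CPM in 1 sample. In PH it was 134.7 ± 113 CPM in stellate, 254 ± 219 in endothelial and 160 ± 44.8 in hepatocyte nuclei. The ranges of the cell types overlapped in both sample types, and they were not tested against each other here apart from hepatocyte and endothelial nuclei.

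Among the basolateral pumps, Abcc3 and Abcc4 were called higher at the central end of the lobule score, like Abcc2 and Abcb4. In L the log2 difference was 1.12 (SE 0.0977) for Abcc3 and 1.15 (SE 0.331, adjusted p = 0.00734 in edgeR's test) for Abcc4, and in CS it was 1.00 (SE 0.107) and 1.34 (SE 0.342). Nr1h4 had a difference of 0.19 in L (adjusted p = 0.129) and -0.03 in CS (adjusted p = 0.909), and Nr0b2 of 0.18 (adjusted p = 0.639) and 0.14 (adjusted p = 0.585).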
